A study of Mus musculus with 16 samples.

Results

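Late quiescence was examined as the step from day 10 to day 12 in culture in mouse embryonic fibroblasts (MEFs), connective tissue cells grown from E13.5 embryos of the C57BL/6 strain. The comparison takes every line at both days, 4 libraries at day 12 against 4 at day 10, which is 8 of the 16 RNA-seq libraries of the series. The lines were 2 wildtype (Zac+/+) and 2 mutant (Zac+/-) for Zac1, now called Plagl1, a gene for a zinc finger transcription factor. The sample titles give the mutant lines the code KOpat, which the labels do not expand. All were grown in DMEM with 10% FBS, with no agent added, and the labels call cells of days 8, 10 and 12 quiescent and cells of day 2 proliferative. The labels name 1 line for each genotype and replicate number at every day, so the day 10 and day 12 libraries of a line are 2 harvests of it. The labels give both replicate 1 lines the letter I and both replicate 2 lines the letter L. The sources used here do not say what the letters mark or which part of the gene the mutation alters.

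Quiescence is a reversible arrest in which a cell leaves the division cycle but stays alive and active. The genes that copy DNA (S phase genes) are switched on by E2F factors and the genes that run mitosis (G2/M genes) by MuvB complexes with B-Myb and FoxM1, and both sets are held down in resting cells by Rb family proteins and the DREAM complex. Resting fibroblasts in dense culture go on making extracellular matrix, the network of collagens, small leucine-rich proteoglycans and adhesive proteins around them.

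Total counts were 42255268 to 58971789 in 6 of the 8 libraries and lower in the mutant lines at day 12, with 32031720 in replicate 1 and 37207510 in replicate 2. Levels are given as CPM, counts relative to the library total scaled by TMM, and changes as log2 of day 12 over day 10 with the standard error (SE). A gene is said to have risen or fallen where its Benjamini-Hochberg adjusted p in edgeR's quasi-likelihood test, with the line as a block, was under 0.05. All 15 defining markers of fibroblasts were detected, with a summed level of 53738 to 64479 CPM at day 10 and 55945 to 73075 CPM at day 12. Macrophage markers (23 tested) summed to 96.8 to 541 CPM at day 10 and 54.5 to 736 CPM at day 12. Of these, none was at 0 in all 8 libraries. Endothelial markers reached 21.3 CPM and epithelial markers 13.8 CPM in sum at most. Genes of erythroid cells summed to 0.0734 CPM at most, and 0 of them were tested.

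Plagl1 (NCBI gene 22634) was read first, as a check of the labels. At day 10 it stood at 212 and 165 CPM in the wildtype and 40.3 and 50.8 CPM in the mutant lines, replicates 1 and 2 in that order. At day 12 the levels were 232, 204, 61.3 and 46.7 CPM. Both mutant lines lay below both wildtype lines on each day. Between the days Plagl1 did not pass the test (log2 0.23, SE 0.11, edgeR adjusted p = 0.360), and it was higher in 3 of 4 lines.

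Between day 10 and day 12 the libraries lost messages of DNA replication and mitosis and gained messages of a set of secreted and matrix proteins. Of all genes, 70 of 14491 tested genes passed (0.483%), of which 39 rose (0.269%) and 31 fell (0.214%). The falls were mainly genes of the division cycle, with Aqp5 and Marcksl1 among the exceptions. Among the rises were the proteoglycans Dcn, Lum and Epyc, the matrix proteins Postn and Mfap4, the protease Mmp3 and the granin Scg2, which had the smallest adjusted p (edgeR adjusted p = 0.00379). Changes were of moderate size, from 0.49 to 1.47 for the rises and from -1.03 to -0.43 for the falls. In all, 2055 genes had an unadjusted p under 0.05.

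Each of the 70 genes moved the same way in all 4 lines, which 22.6% of all tested genes did. The 4 values of one day did not overlap the 4 of the other for 29 of the 31 falling genes (93.5%) and 12 of the 39 rising genes (30.8%), against 5.78% of all tested genes. For most of the rising genes, but not for Dcn, Hp, Sema3d, Bmp3 and Nrk among others, the range of the lines on one day thus reached into that of the other. These counts rest on particular lines: without mutant replicate 1 edgeR called 0 genes (1033 at an unadjusted p under 0.05) and without wildtype replicate 2 it called 3, against 113 without wildtype replicate 1 and 151 without mutant replicate 2. With the line left out of the model 0 genes passed (smallest edgeR adjusted p 0.0569). The 30 genes named by size of change kept their sign in every setting in which they were tested. They had been chosen among called genes that moved alike in all 4 lines, so this follows largely from the choice and is no separate support.

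**Figure D1:**
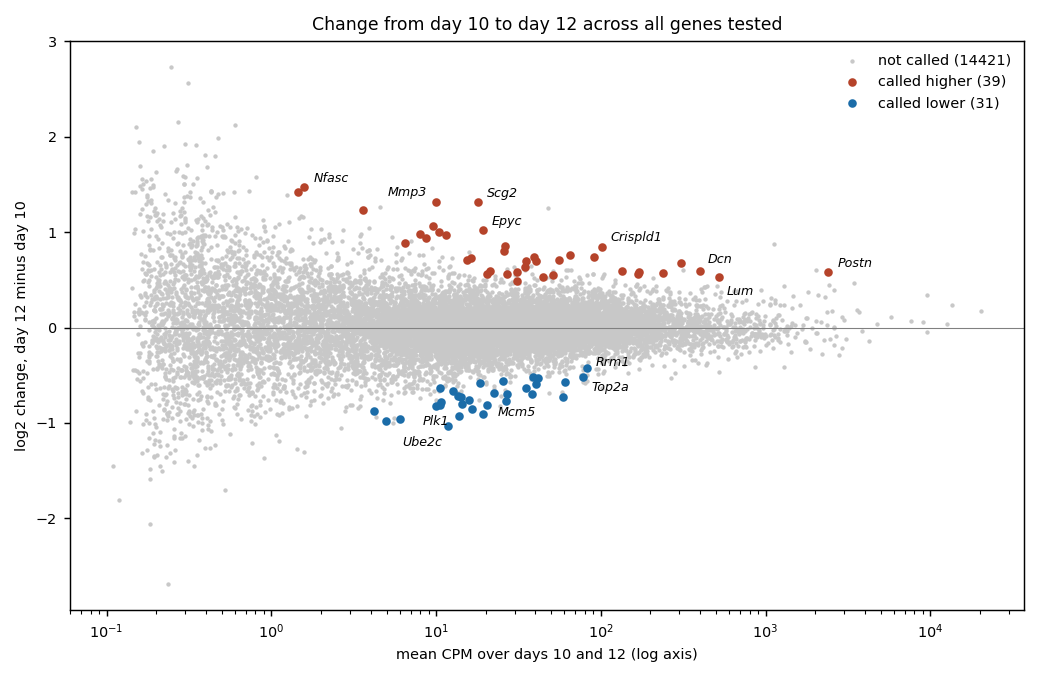
Each point is a tested gene, with its mean level over days 10 and 12 in CPM on a log axis and its log2 change from day 10 to day 12. The 39 genes called higher spread from about 1 to over 1000 CPM, and the 31 called lower lie between 1 and 100 CPM.

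Mitotic genes made up the largest listed group among the falls. Of 25 G2/M genes, 24 were lower at day 12, 22 of them in all 4 lines, and 11 passed the test (Birc5, Ccna2, Ccnb1, Cdc20, Cdk1, Kif11, Kif23, Plk1, Prc1, Top2a and Ube2c). The median log2 change of the list was -0.54, beside 0.01 over all tested genes, and 21 of 25 members had values that did not overlap between the days. By line the median was -0.37 and -0.48 for wildtype and -0.62 and -0.70 for mutant, replicate 1 first. The one member that was not lower was Cenpf, a kinetochore protein (log2 0.01, SE 0.16). Mki67, which encodes the proliferation marker Ki-67, was lower in all 4 lines without passing (52.9 and 41.4 CPM on average, log2 -0.35, SE 0.11, edgeR adjusted p = 0.200). In bulk RNA, fewer dividing cells and less of these messages in each cell cannot be told apart.

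The promoters of 4 of these genes, with that of the replication gene Mcm5, are printed to show the elements that cell cycle genes are known to carry and that are counted over all promoters further on. Each is the RefSeq stretch from 250 bases before to 50 bases after the annotated start (build GRCm38.p6), read 5′ to 3′ on the strand of the gene. Bases shortly after that start were found in a GENCODE transcript of the gene for Plk1, Cdk1, Cdc20 and Ube2c. For Mcm5 they were not, so its start is less certain. In the first 4, capitals mark the cell cycle genes homology region (CHR, TTTGAA or TTCAAA) and the CCAAT box (CCAAT or ATTGG). In Mcm5 they mark 2 overlapping E2F sites, searched as TTTCCCGC, TTTGGCGC or TTTCGCGC on both strands. Plk1 lies at chr7:122159185-122159484 (plus strand), Cdk1 at chr10:69352863-69353162 (minus), Cdc20 at chr4:118437294-118437593 (minus), Ube2c at chr2:164769679-164769978 (plus) and Mcm5 at chr8:75109259-75109558 (plus).
Plk1: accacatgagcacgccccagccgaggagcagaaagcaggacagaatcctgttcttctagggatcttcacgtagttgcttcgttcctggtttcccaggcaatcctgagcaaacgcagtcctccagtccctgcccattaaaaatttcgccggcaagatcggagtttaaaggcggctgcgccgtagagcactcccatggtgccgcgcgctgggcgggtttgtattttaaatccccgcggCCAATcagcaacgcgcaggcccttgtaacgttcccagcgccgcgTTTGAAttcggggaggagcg
Cdk1: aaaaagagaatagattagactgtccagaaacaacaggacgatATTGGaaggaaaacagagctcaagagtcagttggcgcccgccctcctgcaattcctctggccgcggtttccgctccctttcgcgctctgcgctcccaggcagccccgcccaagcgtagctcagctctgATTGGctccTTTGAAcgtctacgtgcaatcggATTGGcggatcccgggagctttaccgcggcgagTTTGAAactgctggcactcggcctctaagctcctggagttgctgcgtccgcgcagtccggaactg
Cdc20: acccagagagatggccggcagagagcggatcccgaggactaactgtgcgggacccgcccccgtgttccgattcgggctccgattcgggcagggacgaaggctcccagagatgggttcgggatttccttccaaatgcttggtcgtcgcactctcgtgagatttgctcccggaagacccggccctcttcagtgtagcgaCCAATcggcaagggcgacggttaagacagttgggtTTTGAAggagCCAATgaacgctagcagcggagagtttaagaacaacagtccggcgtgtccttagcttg
Ube2c: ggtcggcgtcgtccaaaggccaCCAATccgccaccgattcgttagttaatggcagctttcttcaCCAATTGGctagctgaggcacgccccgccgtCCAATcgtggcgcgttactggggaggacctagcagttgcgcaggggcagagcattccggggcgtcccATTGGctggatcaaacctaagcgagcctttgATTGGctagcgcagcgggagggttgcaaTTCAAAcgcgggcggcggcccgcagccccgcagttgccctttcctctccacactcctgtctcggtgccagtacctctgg
Mcm5: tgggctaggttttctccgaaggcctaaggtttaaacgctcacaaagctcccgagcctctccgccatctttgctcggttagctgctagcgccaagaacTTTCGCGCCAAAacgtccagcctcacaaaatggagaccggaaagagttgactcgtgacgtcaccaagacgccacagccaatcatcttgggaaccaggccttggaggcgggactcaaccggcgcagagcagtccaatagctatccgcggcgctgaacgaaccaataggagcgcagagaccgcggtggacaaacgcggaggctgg

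Cdk1, the kinase that drives entry into mitosis, stood at 42.4, 44.7, 49.9 and 58.4 CPM at day 10 (wildtype replicates 1 and 2, then mutant replicates 1 and 2, the order kept below) and at 32.4, 34.2, 26.5 and 35.9 CPM at day 12. Every day 12 value was below every day 10 value, and the change was -0.59 (SE 0.10, edgeR adjusted p = 0.0403). Its promoter has a CHR 15 bases before the start, and a second 71 bases before it. Plk1, the polo-like kinase that acts through mitosis, went from 15.9, 16.5, 20.0 and 19.4 to 10.5, 10.2, 9.67 and 7.33 CPM, a change of -0.93 (SE 0.15, edgeR adjusted p = 0.0323). Both wildtype lines had lost less than both mutant lines, with log2 changes of -0.60 and -0.69 against -1.04 and -1.40. The cyclins of this stage also fell: Ccna2 averaged 33.4 ± 2.85 CPM (SD, n = 4 lines) at day 10 and 20.6 ± 1.20 at day 12 (log2 -0.69, SE 0.10, edgeR adjusted p = 0.0254), and Ccnb1, the partner of Cdk1, 30.1 ± 2.66 and 20.5 ± 2.24 CPM (log2 -0.56, SE 0.10, edgeR adjusted p = 0.0423).

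Genes that act late in mitosis were among the largest falls. Ube2c, the ubiquitin-conjugating enzyme of the anaphase-promoting complex, was at 12.7, 13.1, 20.0 and 18 CPM at day 10 and at 8.64, 7.30, 8.74 and 6.10 CPM at day 12. Its level was thus reduced to 48.9% (log2 -1.03, SE 0.16, edgeR adjusted p = 0.0323), the largest fall among the called genes, and the mutant lines, which were highest at day 10, overlapped the wildtype lines at day 12. Cdc20, the activator of that complex, fell from 23.7, 22.1, 25.6 and 29.4 to 15.7, 15, 13.0 and 10.3 CPM (log2 -0.90, SE 0.15). Birc5, or survivin, and Cdca8, or borealin, are both subunits of the chromosomal passenger complex and fell by 0.80 and 0.78 on the log2 scale. The genes of the central spindle and of cytokinesis followed, with Kif23 at -0.76 (SE 0.12) and Prc1 at -0.52 (SE 0.08). Kif11, the motor that separates the spindle poles, changed by -0.58 (SE 0.10) and Top2a, the topoisomerase that untangles chromosomes, by -0.52 (SE 0.08). In the 4 lines Top2a read 102, 84.9, 85.5 and 92.2 CPM at day 10 and 68.4, 64.7, 59.9 and 61.9 CPM at day 12.

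Genes of DNA replication were lower in every listed case. All 25 S phase genes lay lower at day 12 in all 4 lines, 23 of them with no overlap between the days, and 6 passed (Ccne2, Mcm5, Rrm1, Rrm2, Tk1 and Uhrf1). The list had a median of -0.50, by line -0.42 and -0.33 in wildtype and -0.56 and -0.57 in mutant replicates 1 and 2. Mcm5, a subunit of the replicative helicase, was at 28.6, 21.5, 27.3 and 26.3 CPM at day 10 and at 16.3, 15.3, 14.2 and 12.9 CPM at day 12 (log2 -0.82, SE 0.12, edgeR adjusted p = 0.0254). The other helicase subunits listed did not pass, Mcm3 coming nearest (log2 -0.50, SE 0.10, edgeR adjusted p = 0.0571). Both subunits of ribonucleotide reductase, the enzyme that makes the building blocks of DNA, fell. Rrm2, the regulated subunit, went from 42.6, 39.5, 39.8 and 49.3 to 28.5, 27.9, 28.4 and 25.4 CPM (log2 -0.63, SE 0.10), and Rrm1 from 94.4 ± 7.25 to 70.4 ± 6.64 CPM (SD, n = 4; log2 -0.43, SE 0.08). Tk1, which salvages thymidine, stood at 14.3, 15.5, 20.6 and 20.9 CPM at day 10 and had closed up to 10.8, 10.8, 10.1 and 10.8 CPM at day 12 (log2 -0.73, SE 0.14). Ccne2, the cyclin of S phase entry, changed by -0.67 (SE 0.12) and Uhrf1, which keeps DNA methylation at replication, by -0.68 (SE 0.12). Pcna, the sliding clamp of the polymerases, was lower on average (77.9 and 63.8 CPM) and did not pass (log2 -0.29, SE 0.09, edgeR adjusted p = 0.214).

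Regulators of these genes were among the falls outside both lists. Mybl2, which encodes B-Myb, had levels of 7.85, 4.97, 7.36 and 6.31 CPM at day 10 and of 4.42, 3.10, 2.74 and 3.09 CPM at day 12 (log2 -0.98, SE 0.17, edgeR adjusted p = 0.0403). E2f7, a repressing member of the E2F family, fell from 5.46 ± 0.622 to 2.99 ± 0.370 CPM (SD, n = 4; log2 -0.87, SE 0.16). Asf1b, a histone chaperone of dividing cells, changed by -0.96 (SE 0.16), Ccnf, the F-box protein cyclin F, by -0.82 (SE 0.15), and the mitotic kinase Pbk by -0.81 (SE 0.15). Ckap2l, a spindle protein, fell by 0.85 on the log2 scale. Hmgb2, a chromatin protein, and 2810417H13Rik, the PCNA-associated factor, also fell, with Cdca3 and Prr11 (named, like Hmgb2 and 2810417H13Rik, after their values were seen). All of these had day 12 values below every day 10 value. The water channel Aqp5 and the actin-regulating protein Marcksl1, which are no cycle genes, fell by 0.53 and 0.57 on the log2 scale.

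The shares of promoters that held these elements differed between the groups of genes. Of the tested genes 11374 of 14491 were found in the RefSeq promoter table. Shares are of genes, and a gene with several annotated starts counts where any of its windows held the element. A CHR was present for 16 of 21 G2/M genes (76.2%), 2 of 21 S phase genes (9.52%) and 14.5% of all tested genes with a promoter. Among the genes that fell it was present in 15 of 27 (55.6%), and among those that rose in 6 of 25 (24%). The CCAAT box was in 85.7% of G2/M, 71.4% of S phase and 42.8% of all promoters, and in 85.2% of the falling and 40% of the rising genes. E2F sites were in 9 of 21 S phase promoters (42.9%), 1 of 21 G2/M promoters (4.76%) and 3.89% of all. In the falling genes 5 of 27 had one (18.5%), and in the rising genes 0 of 25. With only the first listed start of each gene, the shares of all were 12% for the CHR, 38.7% for the CCAAT box and 3.47% for E2F sites. E2F sites were then in 38.1% of S phase and 14.8% of falling genes, and the CCAAT box in 36% of rising genes. The other shares given here did not change. A match describes letters in the window and is not a bound site, and the lists were compiled from genes known to be periodic, for which these elements were first described. In Ube2c, whose promoter has 6 CCAAT matches of which 2 overlap, the CHR lies 29 bases before the start and reads TTCAAA, the reverse complement of the form in the other 3.

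**Figure D2:**
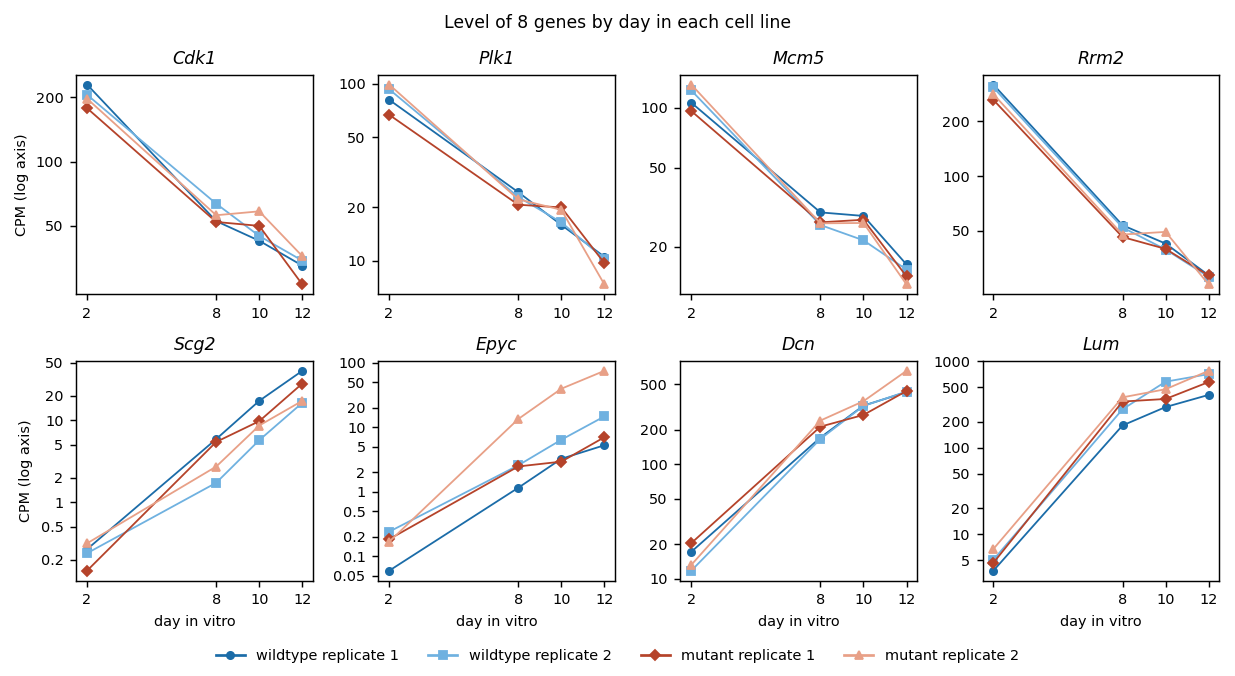
Level in CPM on a log axis at days 2, 8, 10 and 12 for 4 falling genes (Cdk1, Plk1, Mcm5, Rrm2) and 4 rising genes (Scg2, Epyc, Dcn, Lum), one line per cell line. The falling genes had lost most of their day 2 level by day 8, and the step to day 12 adds to it in each of the 4 lines.

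Most of the loss of cell cycle messages had come before day 10. The summed level of the 25 G2/M genes was 2744 to 3209 CPM at day 2, 858 to 976 CPM at day 8, 623 to 720 CPM at day 10 and 417 to 487 CPM at day 12. Day 12 thus held 15% to 16.1% of the day 2 level in the 4 lines, and 61.5% to 76.9% of the day 10 level. From day 8 to day 10 these genes had already gone down, to 64.3% to 78.0%. The S phase sum stayed at 81.7% to 97.0% from day 8 to day 10 and went to 67.1% to 83.7% from day 10 to day 12. The medians of the single gene changes were -0.48 for G2/M and -0.11 for S phase genes from day 8 to day 10, and -0.54 and -0.50 from day 10 to day 12. These steps share the day 10 libraries, and their difference was not tested. Among single genes, Mcm5 averaged 27.1 CPM at day 8, 25.9 at day 10 and 14.7 at day 12, and Top2a 135, 91.3 and 63.7 CPM.

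**Figure D3:**
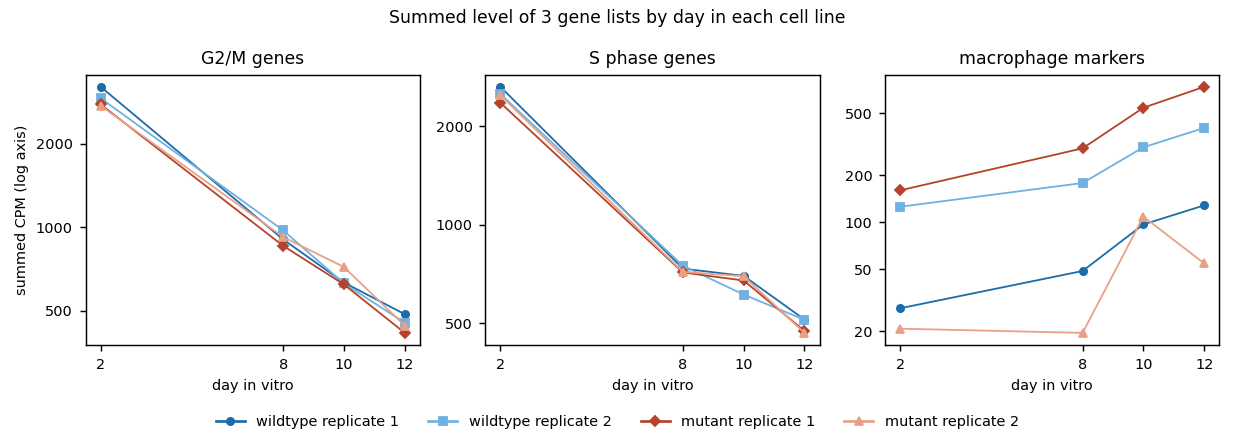
Summed level in CPM on a log axis of the 25 G2/M genes, the 25 S phase genes and the 23 detected macrophage markers at days 2, 8, 10 and 12, one line per cell line. Both cell cycle sums go down at each step in each of the 4 lines, while the macrophage sum of mutant replicate 2 is the 1 that drops after day 10.

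No inhibitor of the cycle passed the test in either direction. Of 16 CDK inhibitor and growth arrest genes 6 were higher and 10 lower, with a median of -0.05. Cdkn1a (p21), the inhibitor induced by p53, averaged 665 CPM at day 10 and 647 CPM at day 12 (log2 -0.04, SE 0.08, edgeR adjusted p = 0.860). Cdkn1b (p27), the inhibitor best known from resting cells, stood at 51.6 and 49.7 CPM (log2 -0.05, SE 0.09). Cdkn1c (p57), an imprinted inhibitor, was at 69.3, 60.3, 58.7 and 44.2 CPM at day 10 and at 64.8, 51.9, 41.6 and 24.0 CPM at day 12. It was lower in all 4 lines without passing (log2 -0.42, SE 0.12, edgeR adjusted p = 0.178). Of the 19 p53 targets 0 passed, with a median of 0.00.

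Small leucine-rich proteoglycans, which bind collagen fibrils and space them, rose in part. Of 21 proteoglycan genes 17 were higher at day 12 and 3 passed, and the median was 0.20. Dcn (decorin) was at 324, 322, 269 and 355 CPM at day 10 and at 426, 431, 436 and 654 CPM at day 12, so that all day 12 values lay above all day 10 values (log2 0.60, SE 0.10, edgeR adjusted p = 0.0333). Lum (lumican) went from 297, 583, 368 and 477 to 410, 712, 577 and 778 CPM (log2 0.53, SE 0.09, edgeR adjusted p = 0.0382). It was higher in each line, but the lines differed so much in level that the days overlapped. Epyc (epiphycan), better known from cartilage, went from 3.24, 6.40, 2.92 and 39.5 to 5.25, 14.7, 7.0 and 74.8 CPM (log2 1.02, SE 0.12, edgeR adjusted p = 0.0254). Mutant replicate 2 stood far above the other lines on both days, and the log2 change was 0.69, 1.20, 1.25 and 0.92 by line. The others of the family did not pass, among them Podn (log2 0.41, SE 0.13), Omd (0.37, SE 0.13), Aspn (0.35, SE 0.11), Prelp (0.27, SE 0.08) and Bgn, or biglycan (0.11, SE 0.08). Cell-surface proteoglycans were spread about zero, from Gpc1 at -0.31 (SE 0.09) to Sdc2 at 0.07 (SE 0.08). The median of the list was 0.01 when only genes with long transcripts were fitted, a setting added after the data were seen.

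Other matrix genes rose one by one. Of 26 matricellular and adhesive proteins 21 were higher (median 0.18), and only Postn, or periostin, passed. It went from 2460, 1576, 1186 and 2675 to 3057, 2506, 2189 and 3630 CPM (log2 0.58, SE 0.10, edgeR adjusted p = 0.0403), up in every line. Mfap4, a microfibril protein, was the 1 called of 18 elastic fibre genes, at 152, 67.9, 109 and 95.8 CPM and then 243, 119, 172 and 110 CPM (log2 0.59, SE 0.10, edgeR adjusted p = 0.0392). The elastic fibre list as a whole had a median of -0.05. Of 11 fibrillar collagens 8 were higher and 0 passed (median 0.16). Col3a1, of type III collagen, was higher in all 4 lines (log2 0.34, SE 0.08, edgeR adjusted p = 0.125). Lama2, a laminin chain of muscle basement membrane, Smoc1, a modulator of BMP signalling in the basement membrane, and Adamtsl3, Egfl6 and Itgbl1, secreted or matrix proteins, also rose by 0.49 to 0.70 on the log2 scale. They were picked with their values in view.

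Mmp3 (stromelysin-1), a protease that cuts proteoglycans and activates other matrix proteases, had the largest rise among the genes named by rule. Its levels were 8.11, 7.24, 3.92 and 3.18 CPM at day 10 and 26.5, 8.45, 11.2 and 11.3 CPM at day 12 (log2 1.32, SE 0.23, edgeR adjusted p = 0.0403). Wildtype replicate 2 had the smallest change (0.22), while the other lines changed by 1.51 to 1.82. Mmp13, a collagenase, was also higher in every line, from 52.1, 24.6, 18.8 and 16.1 to 120, 32.3, 44.6 and 73.1 CPM, and did not pass (log2 1.25, SE 0.25, edgeR adjusted p = 0.101). Of the 24 proteases and inhibitors Mmp3 was the 1 that passed (list median 0.04).

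Scg2 (secretogranin II), a granin stored in secretory granules of neurons and endocrine cells, had the smallest adjusted p of all genes. It was at 17.2, 5.72, 9.75 and 8.62 CPM at day 10 and at 40.0, 16.3, 28.0 and 17.2 CPM at day 12, a 2.48-fold increase (log2 1.31, SE 0.12). The log2 change by line was 1.21, 1.51, 1.52 and 1.00. Scg2 had been near 0.242 CPM at day 2 and averaged 3.95 CPM at day 8, so its rise ran through the whole time course. Nfasc, an adhesion protein of neurons, had a larger fitted rise (1.47, SE 0.27) at a low level, with a day 12 mean of 2.32 CPM. It was named after its values were seen.

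A number of single signalling genes rose. Sfrp2, a secreted protein that binds Wnt ligands, went from 40.0, 64.8, 86.8 and 76.4 to 63.0, 163, 129 and 102 CPM (log2 0.74, SE 0.13, edgeR adjusted p = 0.0403), and was the 1 called of 24 Wnt pathway genes, 12 of which were higher and 12 lower. Lgr5, the R-spondin receptor known as a stem cell marker, went from 32.5, 13.7, 21.0 and 9.68 to 47.5, 22.2, 38.3 and 21.3 CPM (log2 0.81, SE 0.11, edgeR adjusted p = 0.0254). The order of the lines in Lgr5 was the same on both days. Bmp3, a BMP that opposes other BMPs, rose from 5.87 ± 1.31 to 11.4 ± 3.54 CPM (SD, n = 4; log2 0.94, SE 0.18, edgeR adjusted p = 0.0494). Of the 22 listed TGF-beta and BMP genes, which do not include Bmp3, 0 passed, 10 were higher and 12 lower (median -0.04). Sema3d, a secreted semaphorin, rose in each line to nearly one level, from 24.1, 21.8, 14.5 and 15.4 to 33.9, 35.3, 34.5 and 30.9 CPM (log2 0.86, SE 0.13, edgeR adjusted p = 0.0254). Robo2, the receptor of Slit guidance proteins, and Gfra1, a co-receptor for GDNF, rose by 0.55 and 0.63 on the log2 scale (named after their values were seen). Camk4, a calcium-dependent kinase, rose from 29.7 ± 9.45 to 49.0 ± 14 CPM (SD, n = 4; log2 0.74, SE 0.11), and Nrk, a kinase of the germinal centre kinase family, from 49.3 ± 15.1 to 80.8 ± 6.31 CPM (log2 0.76, SE 0.13).

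The remaining rises were of metabolic, defence and other secreted proteins. Hp (haptoglobin), which binds free haemoglobin, went from 5.17, 5.07, 6.66 and 7.31 to 11.7, 9.70, 21.7 and 9.78 CPM with no overlap (log2 1.06, SE 0.19, edgeR adjusted p = 0.0403). Lpl (lipoprotein lipase) and Apod (apolipoprotein D) were the 2 called of 14 adipogenic genes (median 0.09). Lpl went from 41.8, 17.6, 28.5 and 21.1 to 57.0, 34.7, 49.6 and 31.7 CPM (log2 0.70, SE 0.10, edgeR adjusted p = 0.0254). Apod went from 24.9 ± 13.4 to 37.3 ± 20.3 CPM (SD, n = 4; log2 0.58, SE 0.10). Phex, an endopeptidase of bone-forming cells, was the 1 called of 12 bone genes (log2 0.71, SE 0.12, edgeR adjusted p = 0.0403). Slfn5, of the interferon-linked Schlafen family, went from 9.32, 6.58, 8.37 and 3.44 to 17.1, 10.6, 19.5 and 8.08 CPM (log2 1.00, SE 0.14, edgeR adjusted p = 0.0254). Crispld1, a secreted protein, went from 45.4, 70.5, 53.4 and 108 to 53.6, 157, 102 and 219 CPM (log2 0.85, SE 0.13), with the smallest change in wildtype replicate 1. Cpxm2 (0.97), a carboxypeptidase-like secreted protein, Fam198a (0.98) and the glycosyltransferase B4galnt2 (0.88) were also named by rule. Others, chosen after their values were seen, were Igsf10, Ism1, Pamr1, Serpina3n, Slc7a2, Steap4, Tmtc1 and 9930111J21Rik1.

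Several other lists leaned to one side, and of the first 5 given here 0 members passed. Interferon-stimulated genes were higher for 23 of 27 members (median 0.25), with line medians of 0.46 and 0.67 in wildtype replicate 1 and mutant replicate 2 and of 0.04 and 0.02 in the other lines. Isg15, a ubiquitin-like protein induced by interferon, was at 22.2, 23.8, 27.9 and 22.7 CPM at day 10 and at 45.6, 29.5, 25.9 and 44.1 CPM at day 12 (log2 0.55, SE 0.17, edgeR adjusted p = 0.198). The same lines, wildtype replicate 1 and mutant replicate 2, had log2 changes of 1.04 and 0.96, and the others 0.31 and -0.10. Complement genes were higher for 12 of 16 (median 0.24), among them C4b, the fourth component, whose values went from 10.1, 10.9, 9.19 and 8.53 to 13.4, 15.7, 15.2 and 12.9 CPM without overlap (log2 0.56, SE 0.12, edgeR adjusted p = 0.0787). Ribosomal protein genes were lower for 27 of 28 (median -0.11), oxidative phosphorylation genes for 23 of 25 (median -0.13), and actins and tubulins for 12 of 13 (median -0.24). In these 3 lists mutant replicate 1 had the lowest median (-0.34, -0.36 and -0.45). The wildtype medians, replicate 1 first, were 0.006 and -0.063, -0.002 and -0.046, and -0.11 and -0.05. Lower in all 4 lines were 7 of 28, 6 of 25 and 9 of 13 genes. Cox5b, a subunit of cytochrome oxidase, changed by 0.00, -0.75, -0.87 and -1.10 in the 4 lines (log2 -0.68, SE 0.15, edgeR adjusted p = 0.0823). The imprinted gene network, which the study's title names, had 10 of 16 members higher (median 0.06) and only Dcn called. Mest, an imprinted gene of mesoderm, was higher in all 4 lines (log2 0.38, SE 0.08, edgeR adjusted p = 0.0968), and Dlk1, a Notch-like inhibitor of fat cell formation, lower in all 4 (log2 -0.58, SE 0.13, edgeR adjusted p = 0.101).

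**Figure D4:**
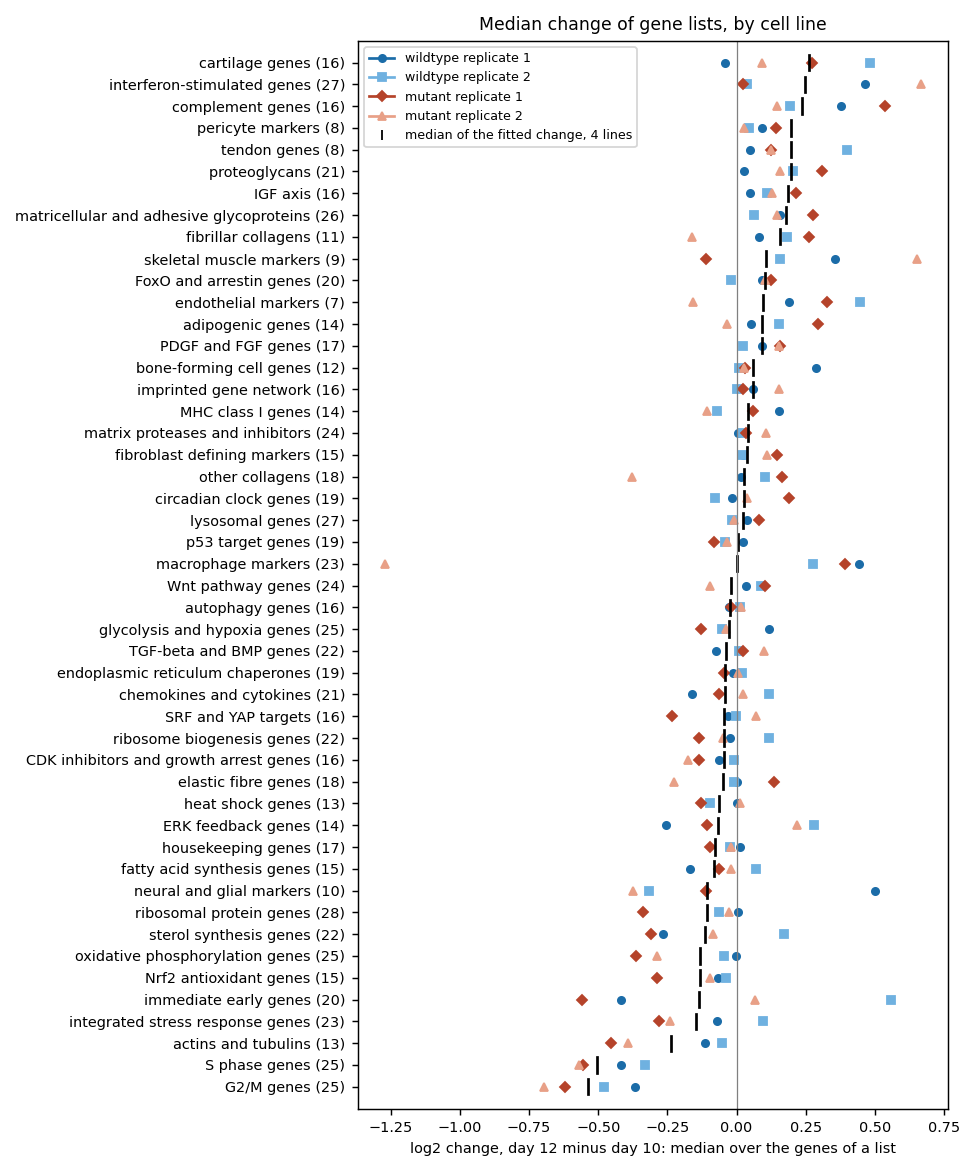
Median log2 change from day 10 to day 12 over the tested genes of each list drawn (number in brackets), by cell line, with a black bar for the median of the fitted change. Epithelial markers (5 tested), erythroid markers (0 tested) and a list of X and Y chromosome genes (5 tested) are not drawn. The G2/M and S phase lists lie at the bottom with all 4 lines below -0.3, and no other list drawn has every line that far from zero.

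Transcript length moved with the change in 3 of the 4 lines. The median change of the shortest 25% and of the longest 25% of genes was 0.02 and -0.02 in wildtype replicate 1, -0.06 and 0.06 in wildtype replicate 2, -0.16 and 0.15 in mutant replicate 1 and -0.22 and 0.27 in mutant replicate 2. The change also spread more widely over all genes in the mutant lines, with an interquartile range of 0.42 and 0.62 against 0.30 and 0.28 in wildtype. Genes that rose had a median transcript of 3863 bases and genes that fell one of 3006, against 3437 for all. Cell cycle genes longer than that median had a median change of -0.46 (6 of 24 called) and shorter ones -0.58 (11 of 26 called). With the length trend taken out of each library, 59 genes rose and 41 fell, and 67 of the 70 were shared. In the genes with long transcripts fitted alone, edgeR called 0 of 6929 (981 at an unadjusted p under 0.05, smallest adjusted p 0.0580), while the G2/M and S phase medians were -0.52 in both lists. The length trend is a difference of 2 days and does not say which of them departed. From day 8 to day 10 the ribosomal protein sum had gone to 87.1% and 89.7% in wildtype and to 107% and 109% in mutant lines. For oxidative phosphorylation genes it had gone to 88.5% and 91.5%, and to 112% in both mutant lines. The part of length, and that of the lower depth of the mutant day 12 libraries, in the results for single genes was not tested further.

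Whether the step differed between genotypes was tested as the interaction of day and genotype. No gene passed (0% of 14491, smallest edgeR adjusted p 0.500), with 1231 at an unadjusted p under 0.05, while DESeq2 called 1. The smallest p belonged to Tmem38b, a cation channel of the endoplasmic reticulum, at 42.1, 30.9, 47.5 and 40.5 CPM at day 10 and 88.7, 50.6, 30.6 and 34.4 CPM at day 12. It was higher in both wildtype and lower in both mutant lines at day 12, a difference of -1.32 (mutant minus wildtype in log2 change, SE 0.19). Tnfrsf12a, the receptor of TWEAK, had a difference of -0.79 (SE 0.15), and Arhgap5, a GTPase-activating protein, 4932438A13Rik and Nipbl, the cohesin loader, had differences of 0.81 (SE 0.16), 0.78 (SE 0.15) and 0.70 (SE 0.14), each with an edgeR adjusted p of 0.545. In Tnfrsf12a, Arhgap5, 4932438A13Rik and Nipbl, day 10 stood apart from days 8 and 12 in both mutant lines. Tmem38b did not show this in mutant replicate 2, with 41.6, 40.5 and 34.4 CPM at days 8, 10 and 12. In wildtype replicate 1 it was day 12 of Tmem38b that stood apart, with 39.4, 42.1 and 88.7 CPM. Arhgap5 read 117, 63.0 and 112 CPM at days 8, 10 and 12 in mutant replicate 1 and 144, 70.7 and 152 in replicate 2. Nipbl read 107, 62.3 and 108 CPM, and 114, 73.4 and 119. Tnfrsf12a was highest at day 10, with 84.4, 126 and 76.8 CPM, and 86.3, 106 and 60.8. For the G2/M and S phase genes the median difference was -0.22 and -0.21, on the side of a larger loss in mutant lines, with 0 called in either list. Without mutant replicate 1 the count of genes was 1117 and without mutant replicate 2 it was 34, each then resting on 1 mutant line, and it was 0 without either wildtype line. For Plagl1 the difference was 0.02 (SE 0.21).

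**Figure D5:**
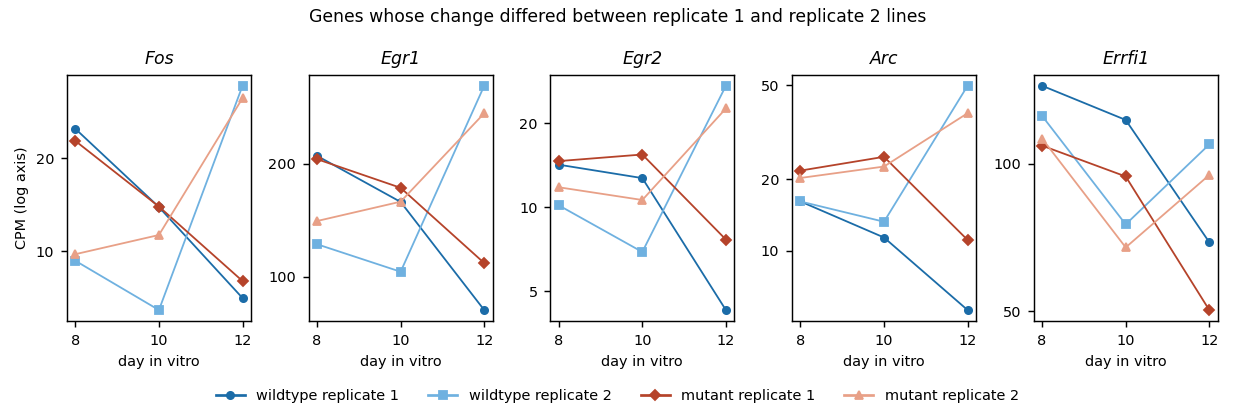
Level in CPM on a log axis of Fos, Egr1, Egr2, Arc and Errfi1 at days 8, 10 and 12, one line per cell line. From day 10 to day 12 both replicate 1 lines go down and both replicate 2 lines go up in each of the 5 genes.

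The replicate 1 and replicate 2 lines, which the labels mark with different letters, differed in 5 genes (0.0345% of 14491), all of them known to be induced within minutes by growth factor signals or to curb such signals. Fos, a component of the AP-1 factor, was at 13.9 and 14 CPM in wildtype and mutant replicate 1 at day 10 and at 7.07 and 8.02 CPM at day 12. In wildtype and mutant replicate 2 it went from 6.46 and 11.3 to 34.4 and 31.3 CPM. The difference of the log2 changes was 2.83 (SE 0.30, edgeR adjusted p = 0.0126). Egr1, a zinc finger factor of the same response, went from 158 and 173 to 81.6 and 109 CPM in the replicate 1 lines and from 103 and 158 to 322 and 272 CPM in the replicate 2 lines (difference 2.02, SE 0.25, edgeR adjusted p = 0.0173). Egr2 and Arc had differences of 2.82 (SE 0.33, edgeR adjusted p = 0.0126) and 2.42 (SE 0.32, edgeR adjusted p = 0.0305). Errfi1, an inhibitor of EGF receptor signalling, went from 123 and 94.2 to 69.2 and 50.3 CPM in the replicate 1 lines and from 75.3 and 67.5 to 110 and 94.9 CPM in the replicate 2 lines (difference 1.38, SE 0.16, edgeR adjusted p = 0.0126). Over the 20 immediate early genes the line medians were -0.42 and -0.56 in wildtype and mutant replicate 1 and 0.56 and 0.07 in wildtype and mutant replicate 2. Averaged over the 4 lines, Fos changed by 0.54 (SE 0.75) and Egr1 by 0.20 (SE 0.53), and 0 of the 20 passed for the day. For cell cycle genes the lines did not part in this way, with a median difference of -0.19 for G2/M and 0.05 for S phase genes and 0 called. The count of 5 changed with single lines, to 8 without wildtype replicate 1, 635 without wildtype replicate 2, 10 without mutant replicate 1 and 15 without mutant replicate 2, each then resting on 1 line of its letter.

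Macrophage markers moved in opposite ways in the lines. Their summed level went from 96.8 to 128 CPM in wildtype replicate 1, from 302 to 401 CPM in wildtype replicate 2, from 541 to 736 CPM in mutant replicate 1 and from 109 to 54.5 CPM in mutant replicate 2. Lyz2, the lysozyme of macrophages, thus read 28.3, 91.7, 185 and 28.0 CPM at day 10 and 38.2, 138, 242 and 19.6 CPM at day 12. Of the 23 markers 0 passed (median 0.00). All 4 lines had lower G2/M and S phase sums at day 12. Scg2, Dcn and Lum were higher in all 4, but so was every gene called higher. Whether macrophage content had a part in the changes of other genes was not tested.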

How the data were processed

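RNA-seq libraries were made with a stranded kit, per the labels' protocols. The deposited table holds whole-number read counts for 23100 genes, not normalized. The submitters' processing notes list bcl2fastq 2.18, Bowtie2 2.2.9, TopHat2 2.1.1 and HTSeq 0.6.1p1, and build mm9. No annotation or strand setting is named in the sources used here, so overlapping genes and near-identical copies are uncertain. A count of 3 is worth 0.0509 to 0.0933 CPM in these 8 libraries.

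From the deposited counts, edgeR's filterByExpr on the day kept 14491 genes, scaled by TMM. The model had line and day (R 4.3.3, edgeR 4.0.16, glmQLFit, robust, 3 residual degrees of freedom), with p-values Benjamini-Hochberg adjusted over all tested genes. Interactions of day with genotype and with replicate number had 2. SE is the absolute log2 change over the square root of F, and changes by line are log2 CPM differences with a prior count of 2. The line pairs the days by design, and deviations of its 2 harvests correlated at 0.41, 0.30, 0.48 and 0.35. No library was a copy of another of its group (chi-square over degrees of freedom at least 57.5).

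Genes named by rule were Plagl1, the 15 largest rises and 15 largest falls among called genes that moved alike in all 4 lines with a mean of at least 5 CPM on either day, leaving out predicted genes, up to 4 genes of smallest p in each of 51 lists, and 5 for each interaction. Some genes that met this rule are left out of the text. Members and lists were chosen with earlier results of these data known. Lists are described by counts and medians, without a set test. Promoters were matched by NCBI gene ID. Transcript lengths came from a GENCODE annotation of another build, for 95.65% of tested genes. Scripts were tested on simulated data. Alternatives used RLE and upper quartile factors, DESeq2 1.42.0, limma-voom (limma 3.58.1), other filters, more libraries, fewer lines and no block.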

Additional observations from a re-analysis of the deposited data

Results flagged for a closer look

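In 5 genes the change from day 10 to day 12 differed between the replicate 2 and the replicate 1 lines by the test of that difference, downward in both replicate 1 lines and upward in both replicate 2 lines. The difference in log2 change was 2.83 for Fos, 2.82 for Egr2, 2.42 for Arc, 2.02 for Egr1 and 1.38 for Errfi1. Genotype is balanced within each letter, and the sources used here do not say what else its lines share.

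The median change of the bone-forming cell genes was 0.286 in wildtype replicate 1, far from the 0.00763 to 0.0315 of the other 3 lines. The median change of the macrophage markers was -1.27 in mutant replicate 2, far from the 0.274 to 0.442 of the other 3 lines. These 2 stood apart among 80 sets of 4 values examined, and chance sets apart about 1 in 20.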

How the results depend on the processing

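Against 39 genes called higher and 31 lower, counts stayed within 1.5 times with RLE factors, upper quartile factors, limma-voom and a stricter filter on low counts. DESeq2 gave 225 and 174, no filter 81 and 59, the 12 quiescent libraries 80 and 98, and all 16 libraries 31 and 80, so that lower calls made up 72.1%. Leaving out each line in turn gave 0 to 96 higher and 0 to 55 lower, the low ends without mutant replicate 1 and, for the falls, also without wildtype replicate 2. Lines taken alone gave 93 higher in wildtype, 215 and 205 in mutant, 155 and 114 in replicate 1 and 160 and 170 in replicate 2. Long transcripts alone gave 0 and 0, and removal of the length trend 59 higher and 41 lower, both settings chosen after seeing the data. The fit with no replicate block gave 0 in both directions and 0 for the replicate difference, although the line pairs the days. The genotype difference had 1 gene with DESeq2, 1 with no filter, and 0 to 1117 when a line was left out. The replicate difference had 19 genes with DESeq2, 17 with no filter, and 8 to 635 when a line was left out. Why the counts moved in these settings was not tested. Fos, Egr2, Egr1 and Arc reversed in the replicate 1 lines alone (-0.90, -1.30, -0.82 and -1.11), and Errfi1 in the replicate 2 lines alone (0.52), as their opposite course in these lines entails. A gene that was not called may still have changed, since 4 lines leave 3 residual degrees of freedom.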
